A study of Homo sapiens with 9 samples.

Results

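Cells with a high share of mitochondrial RNA were compared with cells with a low share, inside each of 6 single-cell libraries of U2OS, a human osteosarcoma line. In every cell the mitochondrial share is the UMIs (unique molecular identifiers, 1 per captured transcript) of the 13 mitochondrially encoded genes divided by all its UMIs. The high cells are the top quartile group of that share within their library and the low cells the bottom quartile group. Of 20942 barcodes, 20451 had at least 500 genes and at most 20% mitochondrial UMIs and were kept, and 5110 high and 5110 low cells were taken from them. All other genes are given in CPM, a gene's UMIs divided by all UMIs of genes that are not mitochondrially encoded (non-MT UMIs) and scaled to 1000000, so that the share that sorted the cells does not enter the level of any gene by its size alone.

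The 6 libraries carry RPB1, the largest subunit of RNA polymerase II, with an N-terminal HaloTag (a self-labelling enzyme) or Dendra2 (a photoconvertible fluorescent protein), each with a C-terminal domain (CTD) of 25, 52 or 70 repeats (25R, 52R, 70R). Every line was grown for 6 days with 1 µg/ml of α-amanitin, a mushroom toxin that blocks RNA polymerase II, and no untreated or untagged library was compared here. There was 1 library per genotype, and the labels do not say whether a line is 1 clone. The 9 labelled samples are 6 libraries, because each HaloTag library was sequenced in 2 runs that the files merge. HaloTag and Dendra2 libraries were sequenced at different times, so that tag and sequencing time cannot be told apart. Each library served as 1 replicate of the comparison of its own high and low cells.

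Mitochondrial DNA encodes 13 proteins of the respiratory chain and ATP synthase and the RNAs that translate them. All other mitochondrial proteins, among them the remaining subunits, the mitochondrial ribosome and the import machinery, are encoded in the nucleus and enter from the cytosol. Both genomes are transcribed by different polymerases, and α-amanitin acts on the nuclear RNA polymerase II. Whether the toxin reduced transcription by the tagged polymerase of these lines was not tested. In droplet data the mitochondrial share is also used as a mark of cell quality.

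The kept cells of a library held between 52554390 and 58442758 UMIs. The labels call the cells epithelial and the tissue bone. Of 8 epithelial markers, KRT8 and KRT18 were abundant (143 to 582 and 695 to 1502 CPM over both groups), while CDH1 stayed at 0.634 CPM or less in each sum and KRT19 at 0.561 or less. Of 8 osteoblast markers, RUNX2 was at 8.79 to 34.2 CPM and COL1A1 at 34.3 to 249 CPM, while SP7 had no UMI in any of the 12 sums. Summed markers of leukocytes stayed at 2.95 CPM or less and those of endothelial cells at 0.509 or less, with CD3E at 0 in all 6 libraries. Between 0 and 7 barcodes were shared by any of the 15 library pairs, and 44 barcodes occurred in more than 1 library.

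The share that sorted the cells is a description and carries no test. The median share over all kept cells was 6.85%, 8.86% and 9.08% in HaloTag 25R, 52R and 70R, and 5.99%, 6.13% and 5.41% in Dendra2 25R, 52R and 70R. The upper edge of the low quartile group lay between 3.95% (Dendra2 70R) and 7.22% (HaloTag 52R), and the lower edge of the high quartile group between 6.93% (Dendra2 70R) and 11.3% (HaloTag 70R). A cell counted as high in Dendra2 70R could thus fall among the low cells of HaloTag 52R. The cells next to an edge differed little: in Dendra2 52R the last low cell had 4.7241% and the first cell outside 4.7248%.

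High cells had more mitochondrial and fewer other UMIs. The median number of mitochondrial UMIs per cell was 448 to 784 in the low quartile groups and 1192 to 1553.5 in the high quartile groups, a log2 difference of 0.87 to 1.57. The median number of non-MT UMIs was lower in the high quartile group of every library, by a log2 difference of -0.22 to -0.53. Depth therefore moved with the groups: median total UMIs were lower by -0.13 (Dendra2 52R) to -0.40 (HaloTag 70R) on the log2 scale. Of the shallowest decile of cells, 35.8% to 47.1% were in the high quartile group, against 14.99% to 38.7% in the low quartile group, and in Dendra2 52R the low share (38.7%) exceeded the high one (35.8%). Across cells, share and depth had a Spearman rho of -0.06 to -0.25 within a library, given as a description since both hold the same UMIs. Because of this difference each main result was repeated with quartile groups taken within 10 bins of total UMIs, called depth bins here.

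**Figure D1:**
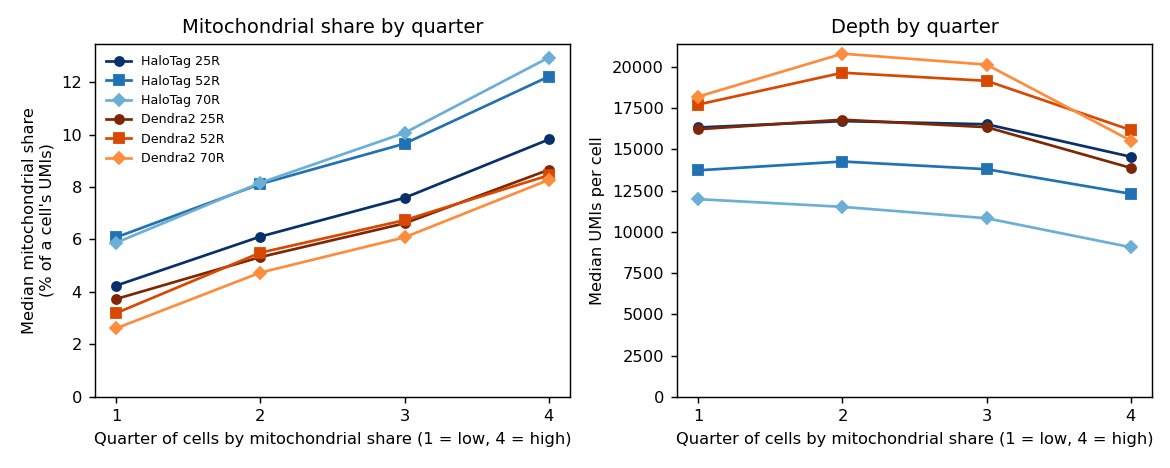
Median mitochondrial share in % of a cell's UMIs (left) and median UMIs per cell (right) for the 4 quartile groups of cells by mitochondrial share, 1 line per library. The share rises by construction, and in all 6 libraries the fourth quartile group has fewer UMIs than the first.

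The 13 mitochondrial genes did not keep the same proportions, which is again described and not tested. MT-ND4, a subunit of complex I, made up 5.82% ± 1.38 of mitochondrial UMIs in low cells and 6.97% ± 1.15 in high cells (SD, n = 6). The share of MT-ATP6, a subunit of ATP synthase, was 11.5% ± 1.80 and 13.7% ± 1.46. Both shares were larger in the high cells of 6 of 6 libraries, with mean log2 differences of 0.28 and 0.27, and so was that of MT-ND1 (0.14). The shares of 3 genes went the opposite way in 6 of 6 libraries. MT-ND3 made up 17.4% ± 4.77 of mitochondrial UMIs in low and 14.3% ± 2.51 in high cells. MT-ND4L made up 0.573% ± 0.203 and 0.451% ± 0.147, and MT-ND6 0.734% ± 0.367 and 0.548% ± 0.210. MT-ND6 is the protein gene encoded on the light strand of mitochondrial DNA. The share of MT-CO2, MT-CO3 and MT-CO1, the 3 cytochrome c oxidase subunits, differed in mean by -0.09, -0.04 and 0.04 and in no single direction over the libraries. In UMIs of the whole cell all 13 genes were higher in the high cells, by mean log2 differences from 1.02 (MT-ND6) to 1.66 (MT-ND4).

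The 4 measured nuclear genes that are copies of mitochondrial 16S rRNA, MT-RNR2, were all higher in high cells. MTRNR2L12 was at 58.9, 107 and 200.5 CPM (lowest, median and highest library) in low cells and at 157, 328 and 527 in high cells. Within each library the high cells had more, and the log2 difference was 1.48 ± 0.06 (SE, edgeR adjusted p = 1.0e-13). MTRNR2L8 (1.28 ± 0.07), MTRNR2L10 (1.27 ± 0.18, from 1.11 to 2.66 CPM in the median library) and MTRNR2L1 (1.21 ± 0.05) were also higher in 6 of 6 libraries, and all 4 passed the test for a fold above 1.2. The mitochondrial genes themselves differed by means of 1.02 (MT-ND6) to 1.66 (MT-ND4), but in UMIs of the whole cell and not in non-MT UMIs. The 2 sets of differences thus have unlike denominators. MT-RNR2 is not among the 13 mitochondrial genes of the count tables. The copies match it closely in the reference genome: MTRNR2L12 (chr3:96617186-96618223, GRCh38.p14) over 1036 aligned bases with 95.08% identity, MTRNR2L8 (chr11:10507887-10509176) with 93.02%, MTRNR2L1 (chr17:22523415-22524663) with 88.37% and MTRNR2L10 (chrX:55181392-55182442) with 81.43%. The following 70 bases show how alike each copy is, with capitals for bases that differ from MT-RNR2 (chrM:2649-2718, plus strand). They lie at chr3:96617188-96617257 (minus strand), chr11:10508141-10508210 (minus), chr17:22524078-22524147 (plus) and chrX:55181909-55181978 (minus), and hold 3, 5, 4 and 13 differences.
MT-RNR2: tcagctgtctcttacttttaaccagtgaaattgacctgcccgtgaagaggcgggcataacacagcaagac
MTRNR2L12: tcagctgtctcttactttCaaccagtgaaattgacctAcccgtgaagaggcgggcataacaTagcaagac
MTRNR2L8: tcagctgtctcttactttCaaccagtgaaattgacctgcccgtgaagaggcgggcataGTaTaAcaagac
MTRNR2L1: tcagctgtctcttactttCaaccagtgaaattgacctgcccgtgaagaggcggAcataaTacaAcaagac
MTRNR2L10: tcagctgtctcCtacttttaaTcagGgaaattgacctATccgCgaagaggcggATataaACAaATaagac
Reads of mitochondrial 16S rRNA and of the nuclear genes may not be separable, which was not tested on reads. MTRNR2L10, with 13 differences in the 70 bases, is the least alike. The 4 genes are left out of the named genes and gene groups that follow, and stay in the counts over all genes. Leaving them out of totals and tests gave 8057 called genes against 8051 with them, and 2352 against 2346 past 1.2-fold.

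Across the 14548 genes tested, 6871 (47.2%) were higher and 1180 (8.11%) lower in high cells at an adjusted p under 0.05 (edgeR quasi-likelihood, library as block, Benjamini-Hochberg). Past a tested fold of 1.2, 2286 genes (15.7%) were higher and 60 (0.412%) lower, and 2172 of these 2346 had the same direction in all 6 libraries. In sums over cells, fewer expressing cells and less RNA per cell cannot be told apart. The excess of higher genes depended on the scaling. The median gene was 0.205 higher on the log2 scale when levels were divided by the total of non-MT UMIs, and 0.02 higher with TMM factors, which place the bulk of genes near 0. With TMM, 2898 genes (19.9%) were higher and 3453 (23.7%) lower, so the higher genes made up 45.6% of the calls in place of 85.3%. Past 1.2-fold, TMM called 502 higher and 518 lower. A gene near a log2 difference of 0.2 is thus at the level of the average gene, and gene groups below are read against the median of all genes. With depth bins the counts were 7065 higher (48.5%) and 1133 lower (7.77%).

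The difference followed how abundant a gene was. Levels here are 3′ counts, which are not divided by transcript length. The 2746 genes under 3 CPM had a median log2 difference of 0.40, the 3819 genes between 10 and 30 CPM 0.21, the 1092 between 100 and 300 CPM -0.02, and the 133 genes above 1000 CPM -0.08. The 500 most abundant genes took 56.1% to 59.6% of non-MT UMIs in low cells and 53.6% to 57.1% in high cells, less in the high cells of 6 of 6 libraries. High cells also showed more different genes at equal depth. After each cell was thinned to 2000 non-MT UMIs, the median number of non-MT genes was 1064 to 1118.5 in low cells and 1107 to 1161 in high cells, more in 6 of 6 libraries. Thinning left out 4 to 17 low and 1 to 3 high cells per library as too shallow, and without it high cells had fewer genes in 6 of 6 libraries (2998 to 4252 against 3553 to 4412).

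Among genes of at least 10 CPM, split into 5 equal groups by the length of the gene in GENCODE, the median log2 difference was -0.02 in the shortest group (up to 10.6 kb) and 0.04, 0.12, 0.18 and 0.28 in the next ones, the last from 96.4 kb on. Of the 1685 genes in the longest group, 482 rose past 1.2-fold and 1 fell, while in the shortest group 88 rose and 25 fell. Depth bins gave -0.02 to 0.29 over the same groups. With TMM the order was the same, but only the longest group stayed above 0, with -0.20 in the shortest and 0.10 in the longest. Length and level went together among these genes. The median length was 41.2 kb between 10 and 30 CPM, 22.6 kb between 100 and 300 CPM and 6.31 kb above 1000 CPM. The parts of length and level were not tested apart. Among genes of at least 10 CPM, 74 of 333 long non-coding RNAs and 989 of 8088 protein-coding genes rose past 1.2-fold, and 0 and 53 fell.

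**Figure D2:**
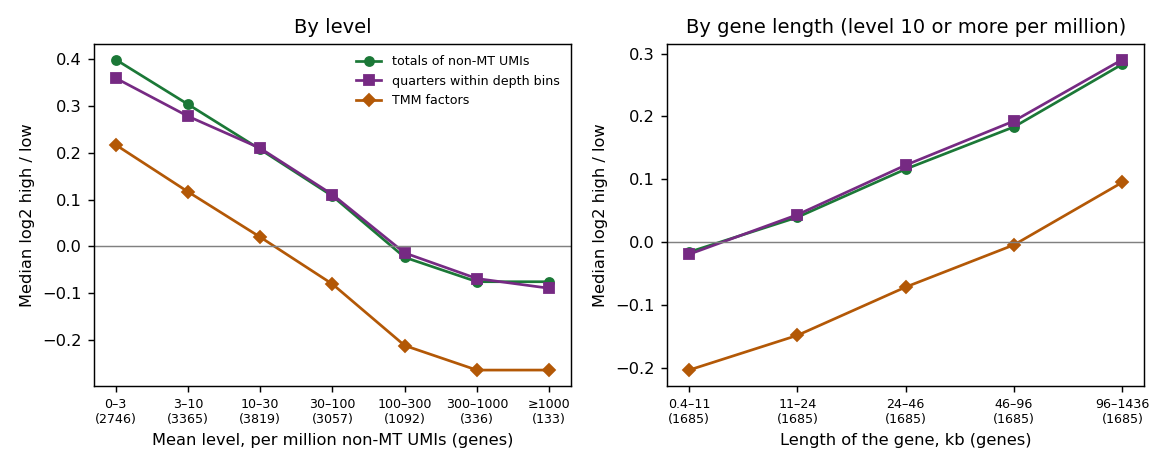
Median log2 difference, high over low cells, for genes grouped by mean level (left) and by gene length (right), with the number of genes in brackets and 3 ways of scaling or matching. On each of the 3 lines it falls with level up to the 300 to 1000 group and rises with length, and the TMM line lies lowest.

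By the rule that chose them (largest difference among genes past 1.2-fold, at least 10 CPM, same direction in 6 libraries), 15 higher and 15 lower genes are named. The 10 CPM floor is on the mean of high and low cells, so a higher gene can pass it through its high cells. Low cells of the median library were under it for 7 of the 15: SELENOP (2.20 CPM), MIAT (3.74), AC090192.2 (5.23), TP53INP1 (6.49), KLHL24 (6.61), SLC2A12 (6.87) and POTEM (7.74). SELENOP, a secreted selenium transport protein, led but was near 10 CPM: 0.456, 2.20 and 16.2 CPM in low cells and 1.12, 6.23 and 53.2 in high cells (lowest, median and highest library). Its log2 difference was 1.35 ± 0.13 (adjusted p = 1.5e-07), 0.84 in depth bins. MAF, a leucine zipper transcription factor, was at 13.6, 21.5 and 63.9 CPM in low cells and 35.5, 48.9 and 182 in high cells. The groups overlapped between libraries, yet in each library the high cells had more, with log2 differences from 0.87 (Dendra2 25R) to 1.57 (HaloTag 25R) and a fitted value of 1.35 ± 0.07. 

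NEAT1, the RNA scaffold of nuclear paraspeckles (chr11:65422774-65445540, GRCh38), was higher in 6 of 6 libraries. Low cells had 1359, 1138 and 671 CPM in the HaloTag libraries (25R, 52R, 70R) and 684, 358 and 423 in the Dendra2 libraries, in the same order. In high cells it was at 2406, 1804 and 1782 in HaloTag and 1096, 866 and 1390 in Dendra2, a fitted fold of 2.13 (log2 1.09, 0.90 with TMM and 0.98 with depth bins). KLHL24, a ubiquitin ligase adaptor (1.19 ± 0.09), GPNMB, a glycoprotein of melanosomes and lysosomes (1.12 ± 0.07), and TP53INP1, a p53-induced stress gene (1.10 ± 0.08), rose in all 6 libraries. The glucose transporters SLC2A12 (1.04 ± 0.08) and SLC2A3 (0.99 ± 0.08) rose as well. SLC2A3 went from 7.03, 14.9 and 26.8 CPM in low cells to 18.4, 27.4 and 45.1 in high cells. The remaining higher genes were YPEL2 (1.07), the non-coding RNAs AC090192.2 (1.05), MIAT (0.98) and IGFL2-AS1 (0.97), POTEM (1.00), the matricellular protein CCN3 (0.99) and the actin-binding ENC1 (0.96). IGFL2-AS1 is an antisense gene, and its reads were not checked for strand here. POTEM belongs to a family of near-identical copies, so its counts may hold reads of other members.

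Of the 15 lower genes, 3 belong to serine synthesis or the amino acid response and at least 6 to mitosis. PSAT1, which makes phosphoserine (chr9:78297125-78330093), had 34.7, 27.2 and 31.5 CPM in low cells of the HaloTag libraries (25R, 52R, 70R) and 29.3, 30.7 and 34.5 in those of the Dendra2 libraries. In high cells it was at 21.4, 17.0 and 13.5 in HaloTag and 18.5, 20.3 and 20.5 in Dendra2. The 2 groups did not overlap, and the log2 difference was -0.76 ± 0.07 (adjusted p = 1.1e-07). PHGDH, the first enzyme of serine synthesis, fell from a median library of 168 to 105 CPM (-0.58 ± 0.06), and TRIB3, a pseudokinase induced by the amino acid response, from 17.3 to 11.8 (-0.49 ± 0.07). EIF4EBP1, the translation repressor 4E-BP1, fell by 0.54 on the log2 scale.

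The mitotic genes among the lower 15 were UBE2C (-0.68 ± 0.09) and UBE2S (-0.56 ± 0.06), the ubiquitin-conjugating enzymes of the anaphase-promoting complex, its activator CDC20 (-0.61 ± 0.07), and CDCA3 (-0.61), PIMREG (-0.62) and PSRC1 (-0.55). CDC20 was at 169 to 237 CPM in low cells and at 115 to 164 in high cells, with no overlap between the groups. The tubulins TUBA1C (-0.50) and TUBB2B (-0.49) and the actin-binding TAGLN (-0.50) fell in 6 of 6 libraries. TAGLN varied widely between libraries and was lower in the high cells of each, going from 32.9 to 25.5 CPM in HaloTag 25R and from 541 to 353 in HaloTag 70R. CRYBG2 (-0.69) and AFP, a fetal serum protein gene (-0.55), complete the 15. Tubulin genes share long identical stretches, and their counts are uncertain to that degree. All 30 named genes kept their direction and passed the 1.2-fold test with TMM and with depth bins.

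**Figure D3:**
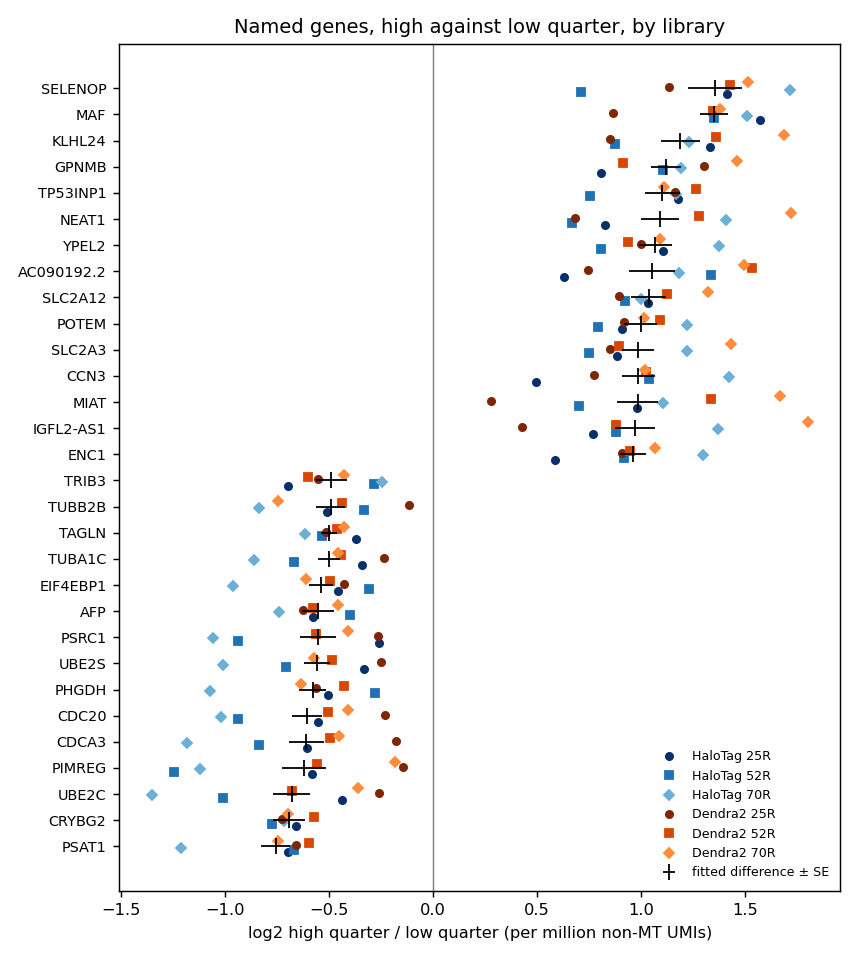
Log2 difference of high over low cells per library (points) and fitted value with its standard error (black) for the 15 highest and 15 lowest named genes. All points of the higher genes lie right of 0 and all points of the lower genes left of 0, and HaloTag 52R and 70R lie farthest left for the 6 named mitotic genes.

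The promoters of the lower genes were read from RefSeq (GRCh38.p14) for 3 motifs, of cell cycle genes and of the amino acid response. TTTGAA is the core of the CHR element, to which complexes that repress G2/M genes bind, and CCAAT is the site of NF-Y, and TTGCATCA is an amino acid response element. All 3 were sought on both strands of the 250 bases before the start. TTTGAA was present in 9 of the 50 promoters available for genes that fell past 1.2-fold (18.0%), in 8.30% of the 10626 of genes tested and in 13.6% of all 27305. CCAAT was present in 62.0%, 35.0% and 33.0%. In the 46 available promoters of the G2/M list the shares were 52.2% and 69.6%. Among 1555 promoters of genes that rose past 1.2-fold they were 8.75% and 33.6%. TTGCATCA was present in 1 of the 50 promoters of fallen genes, in 2 of the 21 available for the ATF4 list (9.52%), and in 0.37% of those of genes tested. The 250 bases of TRIB3 held none of the 3. The last 90 bases before the start of the mitotic genes CDC20 (chr1:43358891-43358980, plus strand) and CDCA3 (chr12:6851287-6851376, minus) and of the serine synthesis genes PSAT1 (chr9:78297035-78297124, plus) and PHGDH (chr1:119711844-119711933, plus) are shown because they carry TTTGAA or CCAAT, in capitals, and those of TRIB3 (chr20:381205-381294, plus) as an example without a match. A match is a description of the sequence and not a site in use.
CDC20: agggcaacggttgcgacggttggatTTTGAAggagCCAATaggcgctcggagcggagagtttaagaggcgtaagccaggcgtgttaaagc
CDCA3: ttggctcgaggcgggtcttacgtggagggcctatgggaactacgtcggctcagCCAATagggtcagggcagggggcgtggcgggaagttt
PSAT1: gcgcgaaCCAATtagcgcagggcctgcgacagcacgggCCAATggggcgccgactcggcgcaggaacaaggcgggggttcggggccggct
PHGDH: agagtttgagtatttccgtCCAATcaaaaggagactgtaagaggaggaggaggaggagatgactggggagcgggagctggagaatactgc
TRIB3: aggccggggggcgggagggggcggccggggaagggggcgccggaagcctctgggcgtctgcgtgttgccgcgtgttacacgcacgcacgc

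Most nuclear-encoded subunits of the respiratory chain did not pass the test, and those that did were more often lower than higher. Of 80 nuclear subunits of the 5 complexes, 9 were higher and 30 lower, with a median log2 difference of -0.05 against 0.205 for all genes, and none passed 1.2-fold. With TMM 72 of the 80 were lower and 0 higher, with a median of -0.23. The median level of the 80 was 316 CPM. The 336 tested genes between 300 and 1000 CPM had a median of -0.08, and -0.26 with TMM. The median of the subunits was thus not below that of genes near their median level. In complex I, 5 of 37 were higher, led by NDUFS1 (0.28 ± 0.05), and 12 lower, among them NDUFA7 (-0.23 ± 0.04). With TMM, NDUFS1 no longer passed (0.10, adjusted p = 0.094). Of the other complexes CYC1, cytochrome c1 of complex III (-0.25 ± 0.04), COX8A of cytochrome c oxidase (-0.30 ± 0.03) and ATP5MF of ATP synthase (-0.18 ± 0.03) were lower in 6 of 6 libraries. COX8A was at 557 to 660 CPM in low cells and 427 to 567 in high cells.

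Of 80 mitochondrial ribosomal protein genes 40 were lower and 1 higher (median -0.10, TMM 77 lower and 0 higher), with MRPL4 (-0.32 ± 0.04) and MRPS2 (-0.27 ± 0.04) among the largest. The median level of the 80 was 120 CPM, and the 1092 genes between 100 and 300 CPM had a median of -0.02. Of 29 import genes 13 were lower and 1 higher (median -0.11), including TOMM40, the outer membrane channel (-0.32 ± 0.04), and PAM16 of the inner membrane motor (-0.30 ± 0.04). Genes for mtDNA replication, transcription and RNA processing or decay stood between: 13 of 36 higher and 5 lower with a median of 0.06, which turned to -0.13 with TMM, where 1 was higher and 16 lower. LRPPRC, which stabilises mitochondrial mRNAs (0.32 ± 0.04), and POLG, the mtDNA polymerase (0.32 ± 0.07), were higher, POLG not with TMM (0.13, adjusted p = 0.12). TFAM, which packages and transcribes mtDNA, was at 175, 213 and 343 CPM in low cells and 161, 218 and 319 in high cells. Its difference of -0.04 ± 0.03 did not pass (adjusted p = 0.39), and with TMM it was -0.23 (adjusted p = 6.2e-05).

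Regulators of mitochondrial biogenesis gave 5 of 13 higher and 1 lower, with PPARA, a lipid-sensing receptor, the highest (0.56 ± 0.07). The median of this list was 0.12, and -0.07 with TMM, where 1 was higher and 4 lower. PPARGC1A, a coactivator of biogenesis, was at 0 to 0.916 CPM in low cells and 0.368 to 2.34 in high cells, and was too low to be tested. Of 22 genes of fusion, fission and mitophagy 10 were higher and 3 lower, against 47.2% and 8.11% over all genes, and 1 and 9 with TMM, with the autophagy receptor NBR1 the highest (0.50 ± 0.07). Their median of 0.11 became -0.07 with TMM. Of 13 mitochondrial chaperones and proteases 3 were higher and 3 lower, and 1 and 9 with TMM: SPG7, an inner membrane protease (0.51 ± 0.05), against HSPE1, the chaperonin partner (-0.25 ± 0.04). The tricarboxylic acid cycle list had 3 higher and 4 lower of 20, 0 and 12 with TMM, MDH2 being lower by -0.23 ± 0.04.

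Tubulin, actin and their small binding proteins had 21 of 28 lower and 0 higher (median -0.20), 5 of them past 1.2-fold, among them TUBA1B (-0.47 ± 0.05) and STMN1, which destabilises microtubules (-0.41 ± 0.04). The median level of the 28 was 662 CPM, and the 336 genes between 300 and 1000 CPM had a median of -0.08. Of 20 glycolysis genes 8 were lower and 2 higher (median -0.09), and 12 and 0 with TMM, with TPI1 (-0.27 ± 0.03) and PGAM1 (-0.26 ± 0.04) among the lower. Of 31 proteasome genes 16 were lower and 1 higher (median -0.08), and 30 and 0 with TMM, PSMB3 being lower by -0.23 ± 0.03. Of 79 cytosolic ribosomal protein genes 42 were lower and 8 higher (median -0.07), and their summed share of non-MT UMIs was smaller in the high cells of 6 of 6 libraries. Their median level was 3031 CPM. The 133 genes above 1000 CPM, which include ribosomal genes, had a median of -0.08. RPSA fell by 0.21 on the log2 scale while RPL23 was higher by 0.30 ± 0.04, though not with TMM (0.11, adjusted p = 0.067). Both have many processed copies in the genome. GAPDH was lower by -0.20 ± 0.03 and ACTB by -0.14 ± 0.03. Of the splicing genes, 12 of 36 were lower and 10 higher, 26 and 0 with TMM, with SNRPB at -0.33 ± 0.04.

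Higher and lower genes numbered 6 and 12 of 35 translation factors (median -0.05), 2 and 9 of 20 heat shock proteins (-0.07), 4 and 9 of 20 NRF2 antioxidant genes (-0.07) and 4 and 5 of 18 host genes of small nucleolar RNAs (-0.02). With TMM these counts were 0 and 29, 0 and 17, 2 and 14, and 2 and 13. SNHG14, a long host transcript on the last of these lists, rose by 0.85 ± 0.05 on the log2 scale. Among apoptosis regulators 12 and 4 of 24 were higher and lower (0.17), among genes of endoplasmic reticulum folding 12 and 6 of 34 (0.04). The same counts were 7 and 6 of 23 cholesterol synthesis genes (0.09), 6 and 2 of 24 histones (0.05) and 5 and 2 of 16 fatty acid oxidation genes (0.08). Over all genes 47.2% were higher and 8.11% lower. The medians of the last 5 lists turned negative with TMM, at -0.02, -0.15, -0.10, -0.15 and -0.11. Their counts with TMM were 6 and 9, 2 and 19, 1 and 11, 1 and 8, and 1 and 8.

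POLR2A, the gene of RPB1, was at 185, 212 and 350 CPM in low cells and 212, 273 and 350 in high cells. Its log2 difference of 0.21 ± 0.05 (adjusted p = 0.0009) was close to that of the median gene (0.205), and with TMM it was 0.02 (adjusted p = 0.70). Of 12 RNA polymerase II subunit genes, 2 were higher and 7 lower (median -0.10), and 1 and 9 with TMM. Over all genes 47.2% were higher and 8.11% lower, and 19.9% and 23.7% with TMM. The median level of the 12 was 176 CPM, and the 1092 genes between 100 and 300 CPM had a median of -0.02.

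Nuclear non-coding RNAs and lysosome, matrix, surface and p53 genes had medians above that of all genes (0.205). Their counts stand beside 47.2% higher and 8.11% lower over all genes, and 15.7% higher past 1.2-fold. Of 11 measured nuclear long non-coding RNAs 9 were higher and 0 lower, 7 past 1.2-fold, with a median of 0.53. With TMM the median was 0.34, with 7 higher and 2 lower. MALAT1, a nuclear speckle RNA, was at 3782, 4359 and 7663 CPM in low cells and 5734, 6863 and 10119 in high cells, a log2 difference of 0.64 ± 0.06. It was higher in 6 of 6 libraries, by 0.26 (HaloTag 52R) to 0.99 (HaloTag 70R). FTX (0.84 ± 0.07) rose as well. The 12 nuclear RNAs together took 0.484% to 0.963% of non-MT UMIs in low cells and 0.738% to 1.28% in high cells. MALAT1 and NEAT1 made up most of this sum. They had 3782 and 358 of 4844 CPM in low cells of Dendra2 52R. In high cells of HaloTag 70R they had 10119 and 1782 of 12808 CPM. RNAs of this list are known to stay in the nucleus.

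The next counts also stand beside 47.2% higher and 8.11% lower over all genes, or 19.9% and 23.7% with TMM. Past 1.2-fold, 15.7% of all genes were higher. Of 27 p53 target genes 22 were higher and 0 lower (median 0.30), 11 past 1.2-fold, and with TMM 12 were higher and 4 lower (median 0.11). ZMAT3, an RNA-binding p53 target, rose by 0.67 ± 0.07, and GDF15, a stress cytokine, by 0.79 ± 0.13, in low cells from 2.96 (Dendra2 52R) to 93.7 CPM (HaloTag 25R). Of 29 lysosome and autophagy genes 23 were higher and 0 lower (median 0.33, depth bins 0.22, TMM 0.15 with 13 higher and 5 lower), GPNMB and GABARAPL1 (0.63 ± 0.07) among them. With depth bins the median of all genes was 0.20, so the lysosome list lay only slightly above it. TMM with depth bins gave 0.05 for the list and 0.03 for all genes. Of 33 matrix genes 25 were higher and 0 lower (median 0.32, TMM 0.13 with 16 higher and 4 lower), including COL5A2 (0.82 ± 0.09) and fibronectin, FN1 (0.67 ± 0.07). Of 26 integrins and surface receptors 17 were higher and 3 lower (median 0.33, TMM 0.14 with 12 higher and 7 lower), with IGF2R (0.72 ± 0.06) and IGF1R (0.67 ± 0.06). IGF1R was at 21.5 to 36.7 CPM in low cells and 37.8 to 53.1 in high cells, without overlap. The lists differed in gene length: the median was 82.0 kb for surface receptors and 64.3 kb for matrix genes, above the 31.5 kb of all genes tested, and 26.4 kb for lysosome genes and 14.4 kb for p53 targets, below it. The part of gene length in these differences was not tested.

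Of 20 interferon-stimulated and RNA-sensing genes 15 were higher and 0 lower (median 0.29), and 7 and 0 with TMM. STAT2 (0.59 ± 0.08) and MAVS, the mitochondrial adaptor of RNA sensing (0.63 ± 0.07), were higher in 6 of 6 libraries. Of 17 immediate early genes 10 were higher and 2 lower with a median of 0.17, or -0.02 with TMM, where 5 were higher and 4 lower. FOS was at 11.1, 15.6 and 50.1 CPM in low cells and 17.9, 23.6 and 93.6 in high cells (0.71 ± 0.07). Of the measured markers, 3 of 5 for osteoblasts and 4 of 4 for fibroblasts were higher and 0 lower. Over all genes 47.2% were higher and 8.11% lower. With TMM, 2 osteoblast markers were higher and 2 lower, and 3 fibroblast markers were higher and 0 lower. The osteoblast markers ALPL and BGLAP fell from 3.51 to 3.09 and from 3.36 to 2.24 CPM in the median library. Summed fibroblast markers were at 69.4 to 201 CPM in low cells and 77.3 to 263 in high cells. Of 5 epithelial markers 1 was lower and 2 higher, and 2 and 0 with TMM. The summed epithelial markers were lower in the high cells of 6 of 6 libraries, at 936 to 1862 CPM in low and 870 to 1581 in high cells. The part of other cell states in the differences was not tested.

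Of 25 measured genes of the ATF4 and integrated stress response list 13 were lower and 4 higher (median -0.20), and with TMM 17 and 1. Besides PSAT1, the largest were CHAC1, a glutathione-degrading enzyme (-0.72 ± 0.16, 5 of 6 libraries lower), and ALDH1L2, of mitochondrial folate metabolism (-0.60 ± 0.12), with mean levels of 4.32 and 4.61 CPM. GDF15 is also on this list and was higher. With depth bins 14 were lower and 4 higher (median -0.18). Summed over the list, high cells had less in 6 of 6 libraries, 0.104% to 0.137% of non-MT UMIs against 0.115% to 0.164%.

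**Figure D4:**
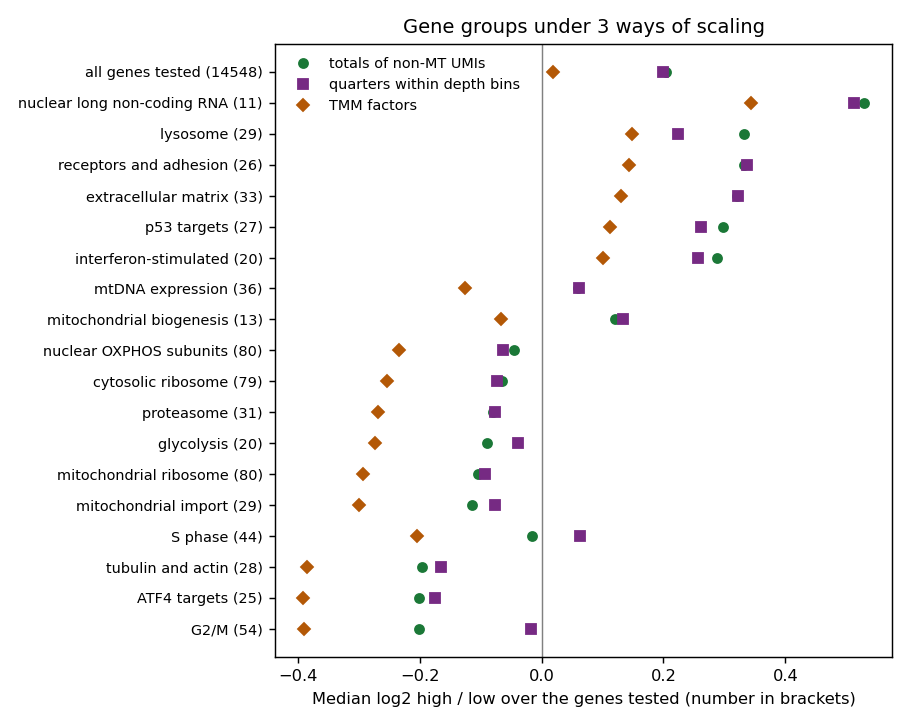
Median log2 difference, high over low cells, for all genes and 18 gene groups, with the number of genes tested in brackets, under total scaling, depth bins and TMM. Nuclear RNAs, lysosome, surface and matrix genes lie right of all genes on each scale, and the respiratory chain, ribosomes, import, cytoskeleton and ATF4 targets lie left of them.

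Cell cycle genes differed between the libraries. Of 54 genes of G2 and mitosis 27 were lower and 2 higher (median -0.20, TMM 50 lower and 0 higher), 11 lower past 1.2-fold. With depth bins 22 were lower and 6 higher and the median was -0.02, closer to 0 than without them. The mean difference over the HaloTag libraries had a median of -0.46 and that over the Dendra2 libraries 0.05, and 39 of the 54 were lower in all 3 HaloTag libraries against 15 in all 3 Dendra2 libraries. The summed share of the list was 0.689%, 0.976% and 1.03% of non-MT UMIs in low cells of HaloTag 25R, 52R and 70R and 0.625%, 0.666% and 0.646% in high cells. In Dendra2 25R, 52R and 70R it was 0.838%, 0.889% and 0.837% in low cells and 0.855%, 0.821% and 0.796% in high cells. Of 44 S-phase genes 10 were higher and 8 lower, 0 and 26 with TMM and 15 and 5 with depth bins, with a summed share that was larger in high cells in 3 of 6 libraries.

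**Figure D5:**
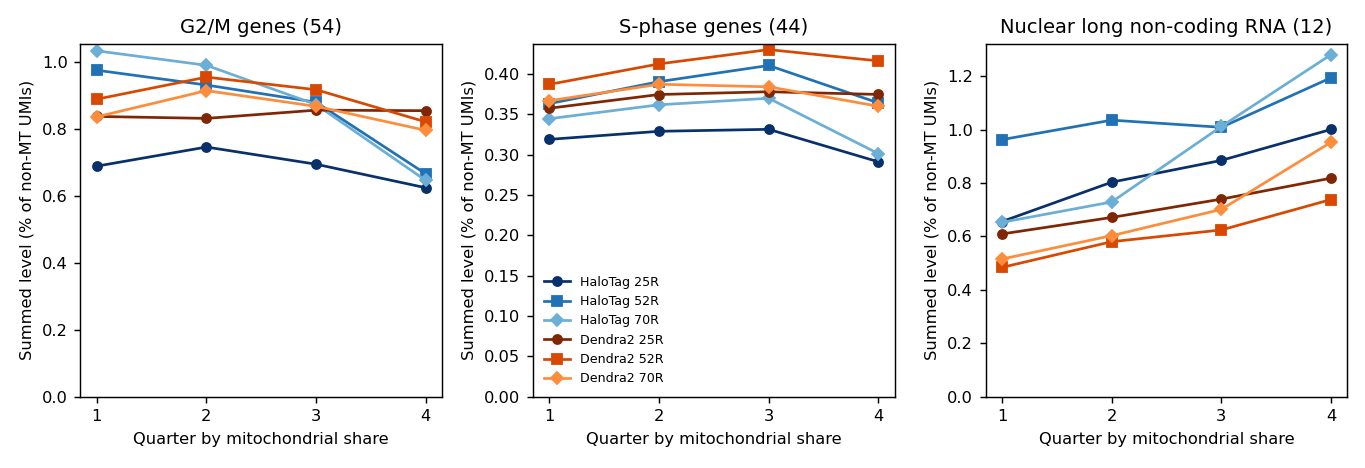
Summed level, in % of non-MT UMIs, of G2/M genes, S-phase genes and nuclear long non-coding RNAs over the 4 quartile groups by mitochondrial share, 1 line per library. The G2/M level falls from the second to the fourth quartile group in 5 libraries, the 3 HaloTag libraries and Dendra2 52R and 70R, and changes little in Dendra2 25R, while nuclear RNA is higher in the fourth quartile group than in the first in all 6. Most of the nuclear RNA level is MALAT1 and NEAT1.

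The difference between tags was tested itself, as an interaction of quartile group and tag over the 6 libraries. It called 60 genes of 14548: 59 with a lower high-low difference in HaloTag (0.406%) and 1 with a higher one (0.00687%). Of the 60, 19 are on the G2/M list and 3 on the S-phase list. Of the 59, 27 were lower in the high cells of all 3 HaloTag libraries and higher in those of all 3 Dendra2 libraries. The 59 were chosen by this tag difference in the same libraries, so unlike signs follow in part from the choice. KNL1, a kinetochore scaffold (chr15:40594020-40664342), had the largest tag difference among the 59 at 10 CPM or more. In HaloTag 25R, 52R and 70R it was at 38.9, 61.4 and 52.3 CPM in low cells and 36.0, 40.9 and 31.8 in high cells. In Dendra2 25R, 52R and 70R it was at 33.2, 46.6 and 32.7 in low cells and 41.5, 66.5 and 46.3 in high cells. The tag difference was -0.92 ± 0.12 (adjusted p = 0.0031), and over all libraries KNL1 did not pass (-0.01 ± 0.12). The spindle checkpoint kinase BUB1B (-0.71 ± 0.11), the helicase PIF1 (-0.89 ± 0.17), the kinesin KIF14 (-0.78 ± 0.17) and the cytoskeletal linker GAS2L3 (-0.76 ± 0.16) had the next largest tag differences at 10 CPM or more.

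FTL, the light chain of the iron store ferritin, was the gene with the opposite sign (0.31 ± 0.07, adjusted p = 0.045), which did not pass with TMM (adjusted p = 0.10). It fell in all 3 Dendra2 libraries, from 3679 to 2470 CPM in 25R, 5449 to 3924 in 52R and 5427 to 4514 in 70R. In HaloTag it went from 3730 to 3886 in 25R, from 2856 to 2519 in 52R and from 2068 to 1738 in 70R. The count of 60 was 7 with TMM, 20 with depth bins and 1 with DESeq2, and of the G2/M list 4 were called with TMM and 8 with depth bins. Leaving out 1 library gave 175 calls without HaloTag 25R and 10, 17, 11, 17 and 8 without HaloTag 52R, HaloTag 70R, Dendra2 25R, 52R and 70R. KNL1 and BUB1B still passed with TMM (adjusted p = 0.0083 and 0.029) and with depth bins (0.0030 and 0.037). PIF1, KIF14 and GAS2L3 passed in neither (adjusted p from 0.099 for PIF1 with TMM to 0.18 for KIF14 with depth bins), and DESeq2 called only KNL1 of all genes. Among cells of at most 10% MT UMIs 0 of the 60 kept the call, KNL1 and BUB1B included. The same held for quartile groups over pooled libraries. The difference in median UMIs between high and low cells was largest in HaloTag 70R (-0.40), and its part in the tag difference was not tested. The lower edge of the high quartile group was 8.41% to 11.3% in HaloTag and 6.93% to 7.46% in Dendra2. The part of these unlike ranges was not tested either. Tag and sequencing time cannot be told apart.

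A difference of the high-low effect among CTD lengths was not found at an adjusted p under 0.05: edgeR called 0 of 14548 genes, with 695 at an unadjusted p under 0.05, and DESeq2 called 0, with 107. Each length had 2 libraries, 1 per tag. Leaving out 1 library gave 0 to 21 calls, 21 without Dendra2 70R.

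The second and the third quartile groups hold cells that are in neither group, and they were compared in the same way. Between them 890 genes (6.05%) were higher and 274 (1.86%) lower in the third quartile group. With TMM 299 were higher and 1092 lower, so higher genes went from 76.5% to 21.5% of the calls. Of the 2269 tested genes that rose past 1.2-fold between the outer quartile groups, 488 were also higher and 0 lower in the third quartile group, and of 59 that fell, 46 were also lower and 0 higher. All 30 named genes had the same sign, and 27 were called the same way. The largest increases were SELENOP (0.85 ± 0.10, but -0.24 and not called among cells of at most 10% MT UMIs), MAF (0.43 ± 0.05), BHLHE41, a circadian repressor (0.40 ± 0.06), GPNMB (0.39 ± 0.06) and CROT, a peroxisomal carnitine transferase (0.38 ± 0.07). The largest decreases were TRMT61A, a tRNA methyltransferase (-0.29 ± 0.07), PSAT1 (-0.28 ± 0.06), the mitotic kinase PLK1 (-0.26 ± 0.04), PHGDH (-0.26 ± 0.03) and UBE2C (-0.25 ± 0.02). Among the lists, 18 of 54 G2/M genes and 8 of 25 ATF4 genes were lower, 16 of 28 cytoskeleton genes were lower, and 13 of 27 p53 targets and 7 of 11 nuclear RNAs were higher. Leaving out HaloTag 70R lowered the count of 1164 to 547, leaving out Dendra2 52R to 601 and Dendra2 70R to 666.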

How the data were processed

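The authors' UMI count matrices were used as deposited: the file headers name Cell Ranger 6.1.2, and bcl2fastq and GRCh38 stand in the submitters' processing notes. No source used here gives their annotation version. Members and gene lists were chosen with earlier results of these data known. Barcodes under 500 genes or above 20% MT UMIs were removed (2.01% to 3.03%), and no doublet caller was run. Tag sequences were left out. Counts of each quartile group were summed per library, filtered with filterByExpr (14548 genes) and tested with edgeR 4.0.16 in R 4.3.3 with the library as a block and the total of non-MT UMIs as library size. The block is the design itself, since high and low cells come from 1 library. The 12 sums left 5 residual degrees of freedom. Per-library log2 values carry a pseudocount of 0.1 CPM. DESeq2 1.42.0, TMM and other cell selections were alternatives; tests were tested on simulated data. The submitters' protocols do not name separate cultures, so p-values measure the spread between libraries. Named genes were the 15 highest and 15 lowest past 1.2-fold with at least 10 CPM and 6 of 6 directions, up to 5 per direction for other tests, and up to 4 called members per list. Lengths came from GENCODE v44 for 14505 of 14548 genes. blastn, numpy, pandas and scipy in Python served for the rest.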

Additional observations from a re-analysis of the deposited data

Results flagged for a closer look

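Of 87 genes checked, 4 had 1 library far from the other 5 by Dixon's criterion for 6 values (0.625), and chance alone flags about 1 in 20 such groups. The log2 difference of high over low cells of MAF was 0.866 in Dendra2 25R against 1.35 to 1.57 elsewhere. That of TP53INP1 was 0.753 in HaloTag 52R against 1.11 to 1.26. That of BHLHE41 was 1.56 in HaloTag 70R against 0.591 to 0.911, and that of PSAT1 was -1.21 in HaloTag 70R against -0.747 to -0.595. In each case the outlying library had the same direction as the others.

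Another 6 genes differed between tags by the test of the difference itself. The high-low difference in HaloTag minus that in Dendra2 was -0.923 for KNL1, -0.891 for PIF1, -0.78 for KIF14, -0.76 for GAS2L3 and -0.71 for BUB1B, and 0.314 for FTL, all on the log2 scale. With TMM only KNL1 and BUB1B of the 6 passed, with DESeq2 only KNL1, and with depth bins KNL1, BUB1B and FTL. None of the 6 kept its call among cells of at most 10% MT UMIs or with quartile groups over pooled libraries. Tag and sequencing time cannot be told apart in these values.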

How the results depend on the processing

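The library block is the pairing of high and low cells. With no replicate block the counts were 3324 in place of 8051 genes called, 331 in place of 2346 past 1.2-fold, and 0 for the tag difference and for the middle quartile groups. In place of 8051 genes called, DESeq2 gave 4471 (1633 higher and 2838 lower, 2809 of them among the 8051 with the same direction), thinned cells 2820, and the test on genes of at least 10 CPM alone, which are fewer, 5062. Past 1.2-fold, TMM gave 1020, genes of at least 10 CPM 1019, at most 10% MT UMIs 1196, thinned cells 546, and TMM with depth bins 629. In place of 60 genes with a tag difference, TMM gave 7, DESeq2 1, no filter on low counts 196, genes of at least 10 CPM 14, at most 10% MT UMIs 4, depth bins 20, leaving out the deepest 5% of cells 100, quartile groups over pooled libraries 10, and TMM with depth bins 8. In place of 0 with a CTD difference, no filter gave 88, at most 10% MT UMIs 4, at least 2000 genes 5, depth bins 7, thinned cells 2, pooled libraries 3, at least 1% MT UMIs 3, and TMM with depth bins 15. In place of 1164 between the middle quartile groups, the middle taken by deciles gave 7, at most 10% MT UMIs 580 and thinned cells 66. Leaving out 1 library gave 7014 to 7887, 1674 to 2462 past 1.2-fold, 8 to 175 (tag), 0 to 21 (CTD) and 547 to 1225 (middle). The cause was not tested. TMM with depth bins and the 1% minimum were chosen after seeing the data.

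Of 1816 alternative values of the high-low differences of 87 genes, 1771 kept direction and call, 31 lost the call, 7 gained one and 7 turned. Of the values of tag differences 64 kept and 62 lost the call, and of those between the middle quartile groups 170 kept it, 30 lost it and 1 turned. Of the 30 named genes, CCN3, TRIB3, TAGLN and AFP lost the call with no replicate block and the others kept it in all 21 settings. The turned values belong to genes whose difference over all libraries did not pass: with at most 10% MT UMIs KNL1 was 0.30, PIF1 0.24, GAS2L3 0.16, BUB1B 0.14 and KIF14 0.14, and with depth bins KNL1 was 0.18 and PIF1 0.22. SELENOP between the middle quartile groups was -0.24 with at most 10% MT UMIs in place of 0.85. Depth, tag with sequencing time, and the lack of a second library per genotype limit all of these values.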
